A study of Mus musculus with 6 samples.

Results

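The genes of cholesterol synthesis, uptake and efflux were followed as a module of 30 members, found in the deposited table by gene symbol, out of 54532 genes listed there. They comprise 7 enzymes of the mevalonate steps, 11 enzymes of the sterol steps, 4 genes of sterol sensing, 4 genes of sterol transport and esterification, and 4 genes around the liver X receptor and cholesterol efflux. All 30 were among the 16623 genes that passed the filter on low counts. RNA was sequenced from inguinal fat, a white subcutaneous depot, of 3 Cdo1AKO samples, in which the cysteine dioxygenase gene Cdo1 was knocked out in adipose tissue, and of 3 Control samples carrying the floxed Cdo1 gene, which the genotype labels call WT. Mice of both groups were 8 weeks old when a high-fat diet started, and they ate it for 15 weeks. The comparison asks how this tissue differs when Cdo1 is deleted in fat under that diet. The sources used here do not give the Cre line or promoter behind the deletion, and no group without the diet was analysed here. The labels do not say whether each sample is a different animal, so the p-values below measure the spread between these samples only, which may be technical.

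Cells build cholesterol from acetyl-CoA through mevalonate, isoprenoids, squalene and lanosterol. When the membrane of the endoplasmic reticulum is short of sterol, SCAP carries SREBP2, the product of Srebf2, to the Golgi, where it is cut into a transcription factor that raises nearly every gene of this route; INSIG proteins hold SCAP back when sterol is plentiful. Oxysterols, which accumulate with cholesterol, activate the liver X receptors (LXR), whose targets Abca1 and Abcg1 export cholesterol to lipoprotein particles and whose target Mylip removes lipoprotein receptors. Fat cells hold much of the body's free cholesterol, most of it at the surface of the lipid droplet and in the plasma membrane.

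The libraries held 16275184 to 19205804 counts. Cdo1 (mm10 chromosome 18, 46713205 to 46728342, minus strand) stood at 123, 391 and 134 CPM (counts scaled to library size, with TMM-scaled sizes) in Cdo1AKO 1 to 3, against 885, 431 and 630 CPM in Control 1 to 3. The groups did not overlap, but Cdo1AKO 2 came close to Control 2, and the edgeR adjusted p of 0.416 did not pass the threshold of 0.05. The sources used here do not say which exons were deleted. Cdo1AKO 2 stood apart from the other libraries: the summed level of 6 fibroblast markers was 5594 CPM there and 1940 to 2756 CPM in the other 5, that of 6 endothelial markers was 1575 CPM against 716 to 932 CPM, and that of 14 macrophage markers was 948 CPM against 468 to 665 CPM. The 12 adipocyte markers were present throughout, at 26622 to 54960 CPM in Cdo1AKO and 43125 to 65060 CPM in Control libraries, with Cdo1AKO 1 and 3 below every Control. The summed level of the 15 listed B cell and lymph node markers was 1019, 9.19 and 1019 CPM in Cdo1AKO 1 to 3, against 6.80, 1550 and 879.5 CPM in Control 1 to 3, so that 1 library of each group nearly lacked them; Pax5, Cxcr5, Glycam1, Ccl21a and Ccl19 had 0 counts in at least 1 library. Cdo1AKO 1 and 3 were the most alike of all same-group pairs, with a chi-square of 5.63 per gene, against 23.0 to 80.2 for pairs of Controls and 194 to 203 for pairs with Cdo1AKO 2. In bulk tissue, fewer cells of a type and less RNA per cell cannot be told apart.

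Synthesis enzymes were high in a single knockout library, Cdo1AKO 2, while the mean of these enzymes in the other knockout libraries lay within the range of the Controls. Of the 18 synthesis enzymes, 16 had a positive log2 fold change of Cdo1AKO over Control, with a median of 0.74, and all 4 genes of the LXR group had a negative one, with a median of -0.11. Of the 30 members 22 were positive (56% of all tested genes were) and 8 negative (44%), and the median was 0.44, beside 0.058 over all 16623 tested genes. Without Cdo1AKO 2 the median of the synthesis enzymes was 0.013, and 9 of the 18 were negative. That of the LXR group was -0.014 without it, and 2 of the 4 were negative, so this library carried most of both medians. Within the LXR group, Abca1 and Mylip changed little without it (-0.41 and -0.048), while Abcg1 and Nr1h2 turned positive (0.066 and 0.020).

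No member passed the edgeR quasi-likelihood test at an adjusted p under 0.05, where 0% of all genes passed (0 of 16623). At an unadjusted p under 0.05 there were 3 higher members, Mvd, Tm7sf2 and Dhcr7, beside 4.66% of all genes, and 2 lower members, Fdft1 and Abca1, beside 5.71%. The 5 together are 16.7% of the members, against 10.4% of all genes. The groups did not overlap in 7 members, 5 higher in Cdo1AKO (8.87% of all genes) and 2 lower (9.73%), which is 23.3% of the members against 18.6% of all genes. The 7 were the same 5 genes with Cyp51 and Fdps. Limma-voom also called 0 members (0% of genes), and the authors' deposited table has 0 members at an adjusted p under 0.05 (1% of its 27492 compared genes). DESeq2 called 1 member, Abca1, at 2.46% of genes called, and none when fitted on all genes with a count, at 1.54%. In what follows, a fold change is the log2 fold change of Cdo1AKO over Control from edgeR with its standard error (SE), over 3 libraries per group. The SE was derived as the size of the fold change divided by the square root of the edgeR F statistic. An adjusted p is from edgeR unless another tool is named.

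**Figure D1:**
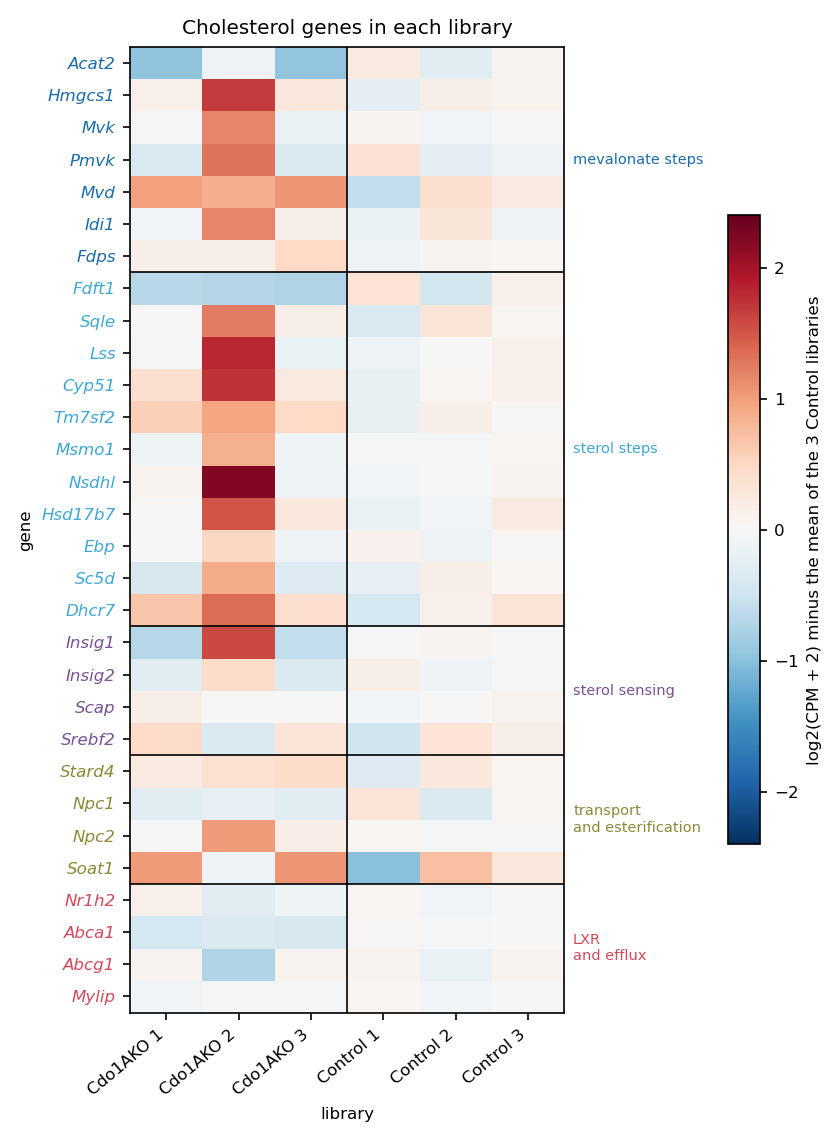
Level of each of the 30 members (rows, grouped by role) in each of the 6 libraries (columns, Cdo1AKO left, Control right), as log2(CPM + 2) minus the mean of the 3 Control libraries; red is higher and blue lower. Cdo1AKO 2 is the reddest column through the synthesis enzymes, while Mvd, Fdft1 and Abca1 are among the members with 1 colour in all 3 Cdo1AKO libraries.

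The starts of 4 genes whose values differ most in kind are shown here: Hmgcs1 and Nsdhl, which were high in Cdo1AKO 2 alone, Mvd, which was higher in every Cdo1AKO library, and Abca1, which was lower in every one. Each sequence is the 250 bases before the RefSeq transcript start on the gene's strand (GRCm38.p6, the mm10 build), read 5′ to 3′. Capitals mark letters that match a searched motif on either strand: the sterol regulatory element form TCACNCCAC, through which SREBP2 can act, the CCAAT box, whose reverse complement is ATTGG and which binds NF-Y, a partner of SREBP2, and a direct repeat of AGGTCA with 4 bases of any kind between, a form that LXR can bind. The windows are chr13:119690101-119690350 (plus strand) for Hmgcs1, chrX:72918271-72918520 (plus strand) for Nsdhl, chr8:122443423-122443672 (minus strand) for Mvd and chr4:53159896-53160145 (minus strand) for Abca1.
Hmgcs1: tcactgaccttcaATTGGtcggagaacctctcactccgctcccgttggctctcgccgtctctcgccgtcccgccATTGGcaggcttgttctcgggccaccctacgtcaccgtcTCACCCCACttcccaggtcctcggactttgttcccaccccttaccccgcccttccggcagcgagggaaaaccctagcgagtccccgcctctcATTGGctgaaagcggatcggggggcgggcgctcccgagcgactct
Nsdhl: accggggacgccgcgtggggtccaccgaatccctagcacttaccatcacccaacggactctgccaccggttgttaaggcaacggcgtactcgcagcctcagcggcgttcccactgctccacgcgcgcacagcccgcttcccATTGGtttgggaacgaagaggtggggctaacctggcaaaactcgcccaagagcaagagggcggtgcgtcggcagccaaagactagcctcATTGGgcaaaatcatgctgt
Mvd: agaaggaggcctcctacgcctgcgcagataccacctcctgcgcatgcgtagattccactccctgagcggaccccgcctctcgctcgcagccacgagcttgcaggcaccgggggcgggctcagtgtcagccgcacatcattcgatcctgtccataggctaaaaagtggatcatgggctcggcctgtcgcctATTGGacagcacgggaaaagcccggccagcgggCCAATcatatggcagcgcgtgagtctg
Abca1: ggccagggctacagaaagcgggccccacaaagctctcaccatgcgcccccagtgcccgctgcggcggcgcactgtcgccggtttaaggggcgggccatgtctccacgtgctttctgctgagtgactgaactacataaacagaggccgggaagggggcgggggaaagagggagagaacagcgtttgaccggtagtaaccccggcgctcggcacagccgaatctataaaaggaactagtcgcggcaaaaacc

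Hmgcs1 held the sterol regulatory element form with its first base at position -137 from the start, together with 3 CCAAT boxes in the bases shown. It was the only one of the 24 members with an entry in the promoter table that held this form. The search covered 250 bases before to 50 after the start. Over all genes there, 1.44% of 27031 held it (1.24% of 32851 promoters). CCAAT boxes were common among the members: 14 of 15 synthesis enzymes with an entry had at least 1, as did 6 of the 9 other members, beside 41% of 27031 genes (37.4% of promoters). Abca1 held none of the exact forms searched in this window. The exact direct repeat was in 0 of 24 members, beside 4 of 27031 genes (5 of 32851 promoters). Both strands were searched, and no matches of different motifs overlapped. Sites of SREBP2 or LXR that depart from these letters would be missed, so a promoter without a match may still hold such a site. These matches describe letters in a short window and say nothing about whether a factor was bound in these samples.

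**Figure D2:**
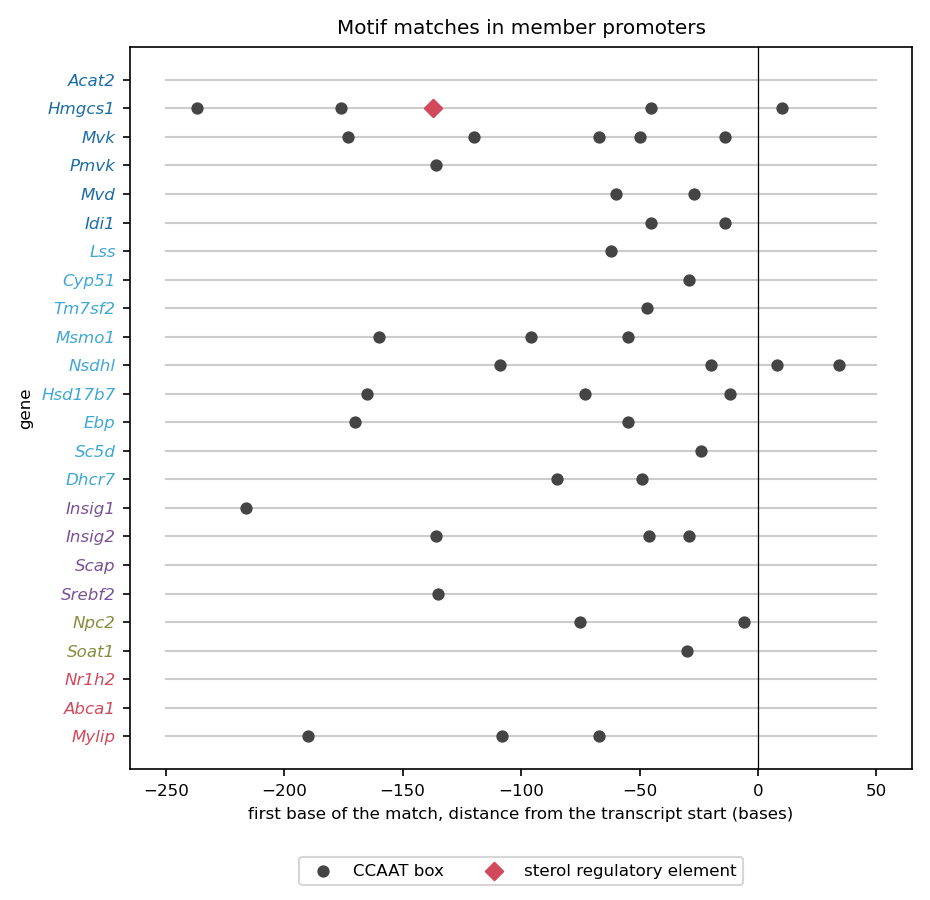
Positions of motif matches in the promoters of the 24 members with an entry, from 250 bases before to 50 bases after the transcript start (horizontal axis, in bases; the vertical line is the start). Circles are CCAAT boxes and the diamond is the sterol regulatory element form, found at -137 in Hmgcs1.

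The mevalonate steps turn acetyl-CoA into farnesyl diphosphate. Hmgcs1 (chromosome 13, 119690379 to 119708260, plus strand), the cytosolic synthase that makes HMG-CoA, had 149, 442 and 167 CPM in Cdo1AKO 1 to 3, against 117, 152 and 145 CPM in Control 1 to 3. Cdo1AKO 2 was 2.65 times the highest of the other 5 libraries, and those 5 differed among themselves by at most 1.42 times. The fold change of 0.87 ± 0.44 (adjusted p = 0.563) became 0.19 without Cdo1AKO 2. Mevalonate kinase, Mvk, followed the same pattern with 20.4, 49.9 and 18.5 CPM in Cdo1AKO 1 to 3, against 22.0, 20.0 and 20.9 CPM in Control 1 to 3. Phosphomevalonate kinase, Pmvk, had 26.9, 90.2 and 27.6 CPM in Cdo1AKO 1 to 3, against 45.5, 29.97 and 32.4 CPM in Control 1 to 3. For both kinases the groups overlapped, and the fold changes of 0.50 ± 0.40 for Mvk and 0.42 ± 0.51 for Pmvk turned to -0.10 and -0.40 without Cdo1AKO 2. Idi1, the isomerase that supplies the allylic isoprenoid unit, had 6.99, 19.1 and 8.39 CPM in Cdo1AKO 1 to 3, against 6.37, 9.45 and 6.58 CPM in Control 1 to 3.

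Mvd (chromosome 8, 122433601 to 122443422, minus strand), the decarboxylase that follows both kinases, behaved differently. It had 19.2, 17.5 and 20.1 CPM in Cdo1AKO 1 to 3, against 5.08, 11.9 and 10.4 CPM in Control 1 to 3, so that all 3 Cdo1AKO libraries stood above all 3 Controls and Cdo1AKO 2 was the lowest of its group. The fold change was 1.05 ± 0.33 (adjusted p = 0.384), between 0.76 and 1.28 when any 1 library was left out. Mvd was the only member called when a term for the presence of lymph node transcripts entered the model (1.12 ± 0.23, adjusted p = 0.0452 by edgeR, where 4.13% of genes were called); over all alternatives its adjusted p lay between 0.0158 and 0.937. Acat2, the cytosolic thiolase that opens the route, went the other way with 45.4, 82.8 and 45.8 CPM in Cdo1AKO 1 to 3, against 105, 74.6 and 94.1 CPM in Control 1 to 3. Cdo1AKO 1 and 3 were below every Control, Cdo1AKO 2 was above Control 2, and the fold change was -0.65 ± 0.28 (adjusted p = 0.505). Of the 50-base windows in Acat2 transcripts 39.1% also occur in other genes, chiefly its neighbour Acat3, so its level is uncertain. Fdps, farnesyl diphosphate synthase, had only 15, 12 and 27 counts in Cdo1AKO 1 to 3, against 5, 12 and 11 counts in Control 1 to 3. Its exons share 26.7% of their bases with Gm43738, a gene on the same strand, and how reads in both genes were counted is not given, so its level is uncertain too.

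**Figure D3:**
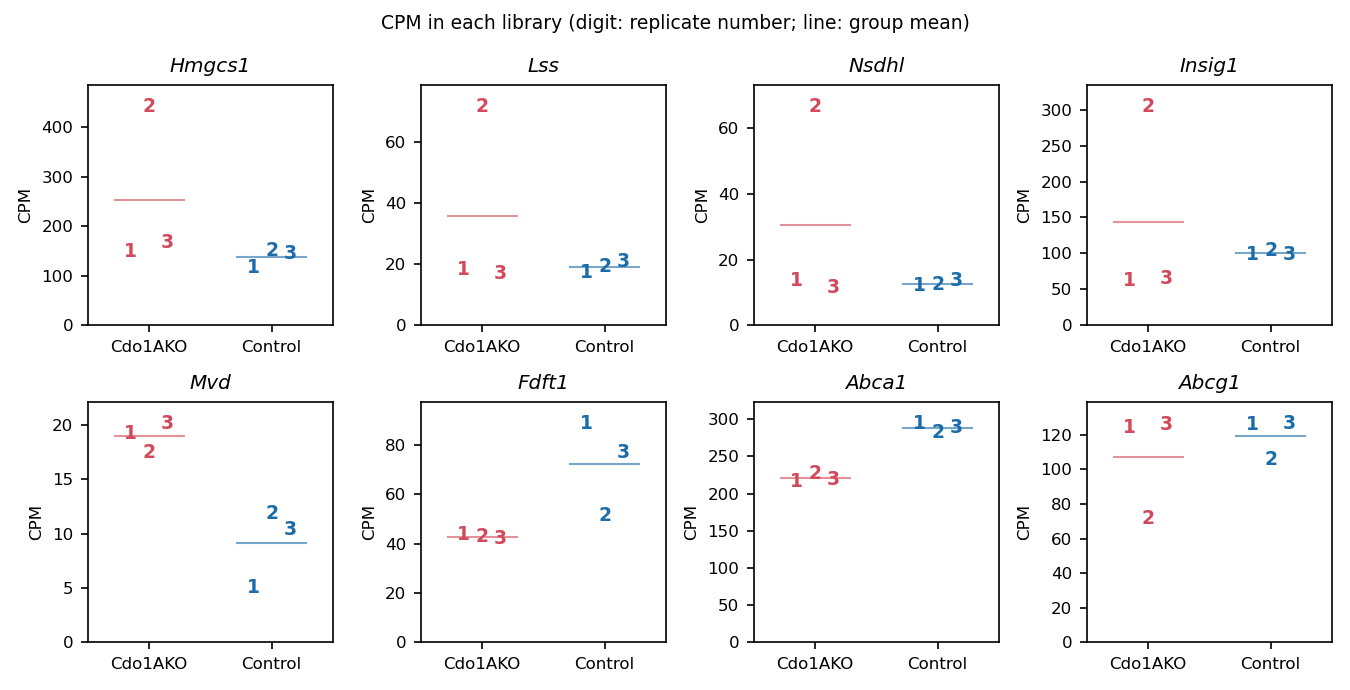
CPM of 8 members in each library (vertical axes, from 0), with the digit giving the replicate number and the line the group mean; Cdo1AKO is left and Control right. In Hmgcs1, Lss, Nsdhl and Insig1 only Cdo1AKO 2 lies above the Controls by a wide margin, whereas all 3 Cdo1AKO libraries lie above the Controls in Mvd and below them in Fdft1 and Abca1.

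The sterol steps begin with squalene. Fdft1, squalene synthase, the step at which isoprenoids are committed to sterols, had 43.6, 42.8 and 41.9 CPM in Cdo1AKO 1 to 3, against 88.5, 51.2 and 76.9 CPM in Control 1 to 3. The knockout libraries were nearly equal and all lay below the Controls, with a fold change of -0.76 ± 0.22 (unadjusted p = 0.0120, adjusted p = 0.362 by edgeR). Of its exonic bases 18.3% overlap Ctsb on the opposite strand, which averaged 30205 counts, and without a stated strand setting their reads cannot be told apart. Sqle, squalene epoxidase, a rate-limiting oxidation, had 6.94, 19.1 and 7.89 CPM in Cdo1AKO 1 to 3, against 4.96, 9.19 and 7.28 CPM in Control 1 to 3. Lss (chromosome 10, 76531588 to 76557138, plus strand), lanosterol synthase, which closes the sterol rings, had 18.4, 71.8 and 16.9 CPM in Cdo1AKO 1 to 3, against 17.3, 19.2 and 20.9 CPM in Control 1 to 3. For Lss, 5 libraries lay within 1.23 times of each other and Cdo1AKO 2 was 3.44 times the highest of them. The fold change of 0.90 ± 0.58 (adjusted p = 0.641) became -0.12 without that library.

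Demethylation of lanosterol showed the widest gap. Nsdhl (chromosome X, 72918557 to 72958514, plus strand), the dehydrogenase that acts when methyl groups are taken off the ring, had 13.5, 66.7 and 11.6 CPM in Cdo1AKO 1 to 3, against 12.1, 12.4 and 13.5 CPM in Control 1 to 3. Cdo1AKO 2 was 5.36 times the median of the other libraries, which spanned 1.17 times; the fold change was 1.27 ± 0.69 (adjusted p = 0.584) with it and -0.015 without it. Hsd17b7, the ketoreductase that completes the same reaction, had 6.94, 23.6 and 8.88 CPM in Cdo1AKO 1 to 3, against 6.07, 6.57 and 8.41 CPM in Control 1 to 3. Msmo1, the oxygenase that starts it, had 14.9, 31.3 and 14.8 CPM in Cdo1AKO 1 to 3, against 16.1, 16.02 and 17.0 CPM in Control 1 to 3. All 3 enzymes of this reaction were thus highest in Cdo1AKO 2, at 1.96 (Msmo1) to 5.36 (Nsdhl) times the median of the other libraries. Cyp51, the lanosterol demethylase that acts before them, had 18.7, 50.6 and 16.7 CPM in Cdo1AKO 1 to 3, against 12.1, 14.5 and 15.2 CPM in Control 1 to 3. Here the groups did not overlap, and the fold change of 1.04 ± 0.45 (adjusted p = 0.502) was 0.35 without Cdo1AKO 2. Tm7sf2, a sterol reductase that follows it, had 10.5, 14.2 and 9.70 CPM in Cdo1AKO 1 to 3, against 5.45, 7.37 and 6.64 CPM in Control 1 to 3. Its groups did not overlap either, with a fold change of 0.82 ± 0.24 (unadjusted p = 0.0123, adjusted p = 0.362 by edgeR) and 0.64 to 0.93 when any 1 library was left out. Tm7sf2 overlaps Vps51 on the same strand and shares 12.1% of its exonic bases with other genes.

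The last conversions to cholesterol follow. Ebp, a sterol isomerase and the most even of the 3, had 29.4, 41.8 and 27.5 CPM in Cdo1AKO 1 to 3, against 31.4, 26.4 and 29.5 CPM in Control 1 to 3. Sc5d, the desaturase after it, had 86.9, 213 and 91.8 CPM in Cdo1AKO 1 to 3, against 99.6, 125 and 118 CPM in Control 1 to 3. For Sc5d the knockout libraries fell on both sides of the Controls, Cdo1AKO 2 above and Cdo1AKO 1 and 3 below. Dhcr7, the reductase that yields cholesterol, had 15.5, 25.9 and 12.6 CPM in Cdo1AKO 1 to 3, against 6.19, 9.99 and 11.6 CPM in Control 1 to 3. All 3 knockout libraries stood above the Controls, by a small margin for Cdo1AKO 3, and the fold change was 0.96 ± 0.36 (unadjusted p = 0.0360, adjusted p = 0.446 by edgeR), or 0.60 without Cdo1AKO 2.

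Taken by library, Cdo1AKO 2 was the highest of the 6 libraries for 14 of 18 synthesis enzymes, and for 31.7% of all tested genes. It exceeded the highest other library by over 1.5 times for 12 of the 18 (9.43% of all genes) and by over 2 times for 8 of the 18 (3.93% of all genes). No other library exceeded the rest by over 1.5 times for more than 1 of the 18. The 4 enzymes for which Cdo1AKO 2 was not the highest were Acat2, Mvd, Fdps and Fdft1. Against Control 1, the Control library that likewise had few lymph node transcripts, 16 of 18 synthesis enzymes were higher in Cdo1AKO 2 (54.1% of all genes were), with a median ratio of 2.80, beside 1.05 over all genes. This is a comparison of 2 libraries with no replicate check. The fibroblast, endothelial and macrophage marker sums given above were also highest in Cdo1AKO 2. Control 1 had the second highest of each, at 2756, 932 and 665 CPM, and the lowest mean of the synthesis enzymes of all libraries. The part of these cells in the result was not tested.

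**Figure D4:**
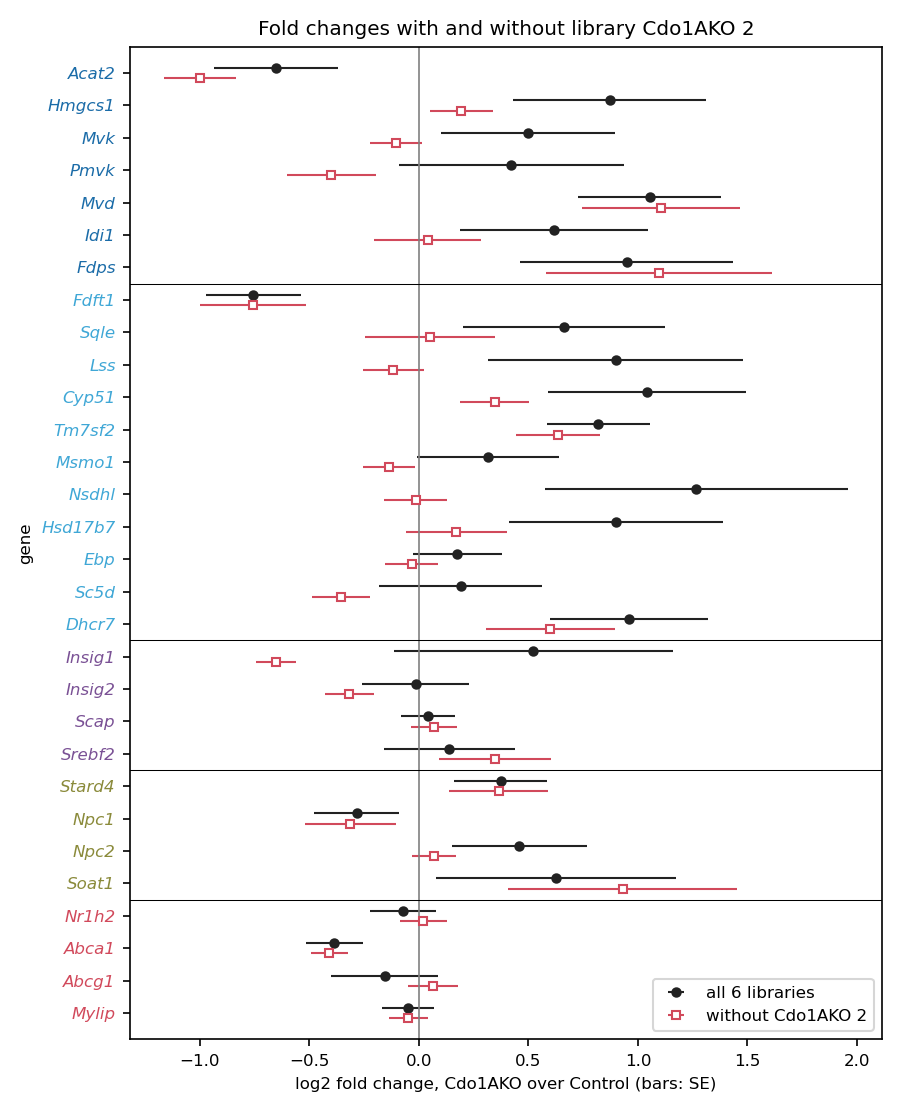
Log2 fold change of Cdo1AKO over Control for each member (horizontal axis, bars are the SE derived from the edgeR F statistic), from all 6 libraries (filled circles) and without Cdo1AKO 2 (open squares). The median of the synthesis enzymes moves to 0.013 without that library. Mvd, Fdft1 and Abca1 nearly keep their places, and Tm7sf2 moves from 0.82 to 0.64.

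Sterol sensing genes did not follow a common line. Insig1 (chromosome 5, 28071363 to 28078662, plus strand), which holds SCAP in the endoplasmic reticulum and is itself a target of SREBP2, had 61.8, 305 and 65.5 CPM in Cdo1AKO 1 to 3, against 98.2, 104 and 98.0 CPM in Control 1 to 3. Cdo1AKO 2 was 2.92 times the highest other library, yet Cdo1AKO 1 and 3 were both below all Controls, at 0.636 times their mean. The fold change of 0.52 ± 0.64 (adjusted p = 0.795) was therefore -0.65 without Cdo1AKO 2. Insig2, its partner, had 50.4, 83.4 and 47.5 CPM in Cdo1AKO 1 to 3, against 67.4, 57.0 and 58.7 CPM in Control 1 to 3. Again Cdo1AKO 2 was the highest library and the other knockout libraries lay below every Control. Srebf2, which encodes SREBP2, had 101, 56.7 and 90.5 CPM in Cdo1AKO 1 to 3, against 51.9, 92.6 and 80.8 CPM in Control 1 to 3. The mRNA of the factor was thus lowest in Cdo1AKO 2 and Control 1, the libraries with few lymph node transcripts, and in Cdo1AKO 2 it did not accompany the enzymes. Scap, the escort of SREBP2, had 61.7 to 68.8 CPM in Cdo1AKO and 59.2 to 66.0 CPM in Control libraries, with a fold change of 0.043 ± 0.12.

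Among transport genes Npc2, which takes cholesterol from lipids inside lysosomes and hands it to the membrane protein NPC1, had 504, 1034 and 567 CPM in Cdo1AKO 1 to 3, against 527, 501 and 503 CPM in Control 1 to 3. Npc1 was not high in Cdo1AKO 2, with 50.1, 53.2 and 49.9 CPM in Cdo1AKO 1 to 3, against 76.1, 47.3 and 63.0 CPM in Control 1 to 3. Stard4, a cytosolic sterol carrier, had 14.9 to 17.7 CPM in Cdo1AKO and 9.74 to 15.3 CPM in Control libraries, and the groups overlapped. Soat1, which esterifies cholesterol for storage, had 38.3, 16.4 and 39.5 CPM in Cdo1AKO 1 to 3, against 8.03, 30.8 and 22.3 CPM in Control 1 to 3. The lowest values of Soat1 were again in Control 1 and Cdo1AKO 2, and its fold change was 0.63 ± 0.55 (adjusted p = 0.712), or 0.70 ± 0.18 (adjusted p = 0.0744 by edgeR) with the lymph node term. Whether transcripts of lymph node cells set the levels of Soat1 and Srebf2 was not tested further.

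All 4 genes of the LXR group had a negative fold change, but only that of Abca1 was larger in size than its SE. Only for Abca1 did all 3 knockout libraries stand apart from the Controls. Abca1 (chromosome 4, 53030787 to 53159895, minus strand), the transporter that loads cholesterol and phospholipid onto apolipoprotein A-I, had 216, 228 and 219 CPM in Cdo1AKO 1 to 3, against 294, 283 and 290 CPM in Control 1 to 3. The spread within each group was small (221 ± 6.12 CPM in Cdo1AKO and 289 ± 5.76 CPM in Control, SD, n = 3) and the groups did not overlap. The fold change of -0.39 ± 0.13 had an unadjusted p of 0.0239 and an adjusted p of 0.416 by edgeR, and it stayed between -0.41 and -0.37 under every alternative tried. DESeq2 called it on the filtered genes (adjusted p = 0.0171) and not on all genes with a count (adjusted p = 0.258), the authors' deposited table gives an adjusted p of 0.252, and the range over all alternatives was 0.0171 to 0.942. Abcg1, which passes cholesterol on to high-density lipoprotein, had 124, 71.7 and 126 CPM in Cdo1AKO 1 to 3, against 126, 106 and 126 CPM in Control 1 to 3. Here only Cdo1AKO 2 was low, and the fold change of -0.16 ± 0.24 (adjusted p = 0.844) was 0.066 without it. Mylip, the ubiquitin ligase that sends lipoprotein receptors to degradation, had 107 to 110 CPM in Cdo1AKO and 107 to 116 CPM in Control libraries. Nr1h2, which encodes LXR beta, had 123, 93.2 and 106 CPM in Cdo1AKO 1 to 3, against 117, 108 and 113 CPM in Control 1 to 3. The fold changes were -0.049 ± 0.12 for Mylip and -0.073 ± 0.15 for Nr1h2.

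Synthesis and efflux were set beside each other in each library as the mean log2(CPM + 2) of the 18 enzymes and of the 3 LXR targets Abca1, Abcg1 and Mylip, minus the Control mean. The synthesis mean deviated by 0.017, 1.03 and 0.030 in Cdo1AKO 1 to 3, against -0.097, 0.024 and 0.073 in Control 1 to 3. The LXR target mean deviated by -0.14, -0.37 and -0.11 in Cdo1AKO 1 to 3, against 0.051, -0.089 and 0.039 in Control 1 to 3. Taken singly, Abca1 deviated by -0.42, -0.34 and -0.39 in Cdo1AKO 1 to 3. Abcg1 deviated by 0.060, -0.72 and 0.078 in the same libraries, and Mylip by -0.066, -0.049 and -0.027. Cdo1AKO 2 was thus the library with the highest synthesis mean and the lowest mean of these 3 LXR targets. Cdo1AKO 1 and 3 lay within the range of the Controls for synthesis. For the LXR target mean they lay slightly below it, and of the 3 targets only Abca1 was below its Control range in them. Among other LXR targets, Pltp (355 CPM), Lpcat3 (113 CPM) and Smpdl3a (162 CPM) were highest in Cdo1AKO 2. Arl4c (19.3 CPM) was lower there than in Cdo1AKO 1 and 3. Lpcat3 and Smpdl3a are named here after their values were seen. The median fold change of the enzymes minus that of the LXR targets was 0.90 over all 6 libraries and 0.060 without Cdo1AKO 2. In Cdo1AKO 2 the median ratio to Control 1 was 2.80 for the enzymes and 0.774 for the LXR targets.

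**Figure D5:**
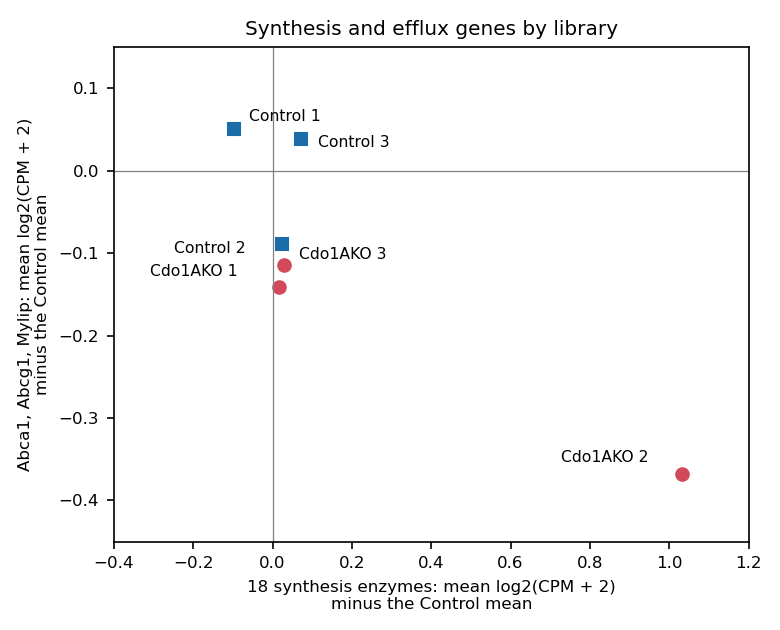
Mean log2(CPM + 2) of the 3 LXR targets (vertical axis) against that of the 18 synthesis enzymes (horizontal axis), each minus its Control mean, for the 3 Cdo1AKO (circles) and 3 Control libraries (squares). Cdo1AKO 2 lies alone at 1.03 and -0.37, and the other 5 libraries lie between -0.097 and 0.073 on the horizontal axis.

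Within the 4 libraries that held lymph node transcripts, Cdo1AKO 1 and 3 and Control 2 and 3, edgeR called 5 members, which is 16.7% of them, and 15.3% of all genes. Acat2 (-0.89 ± 0.13, adjusted p = 0.00829), Insig1 (-0.67 ± 0.10, adjusted p = 0.00867), Sc5d (-0.45 ± 0.10, adjusted p = 0.0295) and Abca1 (-0.40 ± 0.10, adjusted p = 0.0433) were lower in Cdo1AKO, and Mvd (0.82 ± 0.15, adjusted p = 0.0158) was higher. The synthesis enzymes had a median of -0.059 there. In these libraries the adipocyte markers summed to 26622 and 27886 CPM in Cdo1AKO 1 and 3, against 43125 and 51410 CPM in Control 2 and 3, and the T cell markers to 992 and 1014 CPM, against 354 and 213 CPM in those Controls. The part of these cells in the 5 calls was not tested. Over all alternatives the adjusted p reached 0.983 for Acat2, 0.991 for Insig1 and 0.996 for Sc5d. These calls rest on 2 libraries per group, and the Cdo1AKO pair is the closest same-group pair of the data, as given above.

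Levels of different members were compared per length, in the FPKM that the authors deposited, averaged over all 6 libraries. Npc2 was the highest at 110.9 FPKM, followed by Hmgcs1 (42.3 FPKM) and Insig1 (39.3 FPKM), whose highest values were in Cdo1AKO 2. Mylip (34.0 FPKM), Nr1h2 (32.7 FPKM) and Acat2 (29.2 FPKM) came next, at levels that overlapped between libraries. In the Controls alone the order after Npc2 (93.3 FPKM) was Acat2 (35.6 FPKM), Mylip (34.5 FPKM), Nr1h2 (33.5 FPKM), Insig1 (32.2 FPKM) and Hmgcs1 (29.9 FPKM). Abcg1 (27.8 FPKM) and Abca1 (24.5 FPKM) stood above most of the sterol enzymes, of which Sc5d (25.0 FPKM) was the highest. Lss, Dhcr7, Hsd17b7, Sqle and Tm7sf2 lay between 2.53 and 1.60 FPKM, so that the enzymes with the clearest Cdo1AKO 2 excess included some of the least abundant. In Cdo1AKO 2 Nsdhl reached 23.2 FPKM, against 4.27 to 4.69 FPKM in the Controls.

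Beyond the members, 64 genes of 4 wider cholesterol lists were in the table, of which 60 were tested, and edgeR called 0 of them (0% of all genes). At an unadjusted p under 0.05 there were 0 higher and 1 lower of 11 tested genes of isoprenoid branches and early steps, 0 and 2 of 12 of SREBP processing and enzyme turnover, 1 and 1 of 21 of sterol uptake and transport, and 1 and 3 of 16 of LXR partners, other LXR targets and oxysterols. In that order these are 9.09%, 16.7%, 9.52% and 25% of the tested genes of each list. Over all tested genes the share was 10.4%, with 4.66% higher and 5.71% lower. Por, the reductase that passes electrons to Cyp51 and squalene epoxidase, had the smallest p of these lists. It had 380, 458 and 332 CPM in Cdo1AKO 1 to 3, against 1138, 569 and 825 CPM in Control 1 to 3, a fold change of -1.11 ± 0.30 (adjusted p = 0.358 by edgeR, 0.0253 by DESeq2 and 0.0446 in the authors' deposited table). All Cdo1AKO libraries lay below all Controls, although Cdo1AKO 2 was the highest of the knockout libraries. In Cdo1AKO 2, where Cyp51 and Sqle were highest, Por was thus still below every Control. In the same list Fdx1, a mitochondrial electron carrier for sterol hydroxylases, had -0.61 ± 0.28, and Cyb5r3, which reduces cytochrome b5 for Sc5d and Msmo1, had 0.61 ± 0.34 with its highest value, 418 CPM, in Cdo1AKO 2.

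Among the genes of SREBP processing and turnover with the smallest p were Pgrmc1 (-0.54 ± 0.21), a haem-binding membrane protein, and Erlin1 (-0.31 ± 0.14), part of the degradation complex of the endoplasmic reticulum. Among the uptake and transport genes they included Lrp1 (-0.68 ± 0.26), a large endocytic receptor of fat cells and macrophages, and Stard3 (0.36 ± 0.17), a sterol carrier of late endosomes. Lrp1 had 704, 855 and 614 CPM in Cdo1AKO 1 to 3, against 1403, 887 and 1191 CPM in Control 1 to 3, and Cdo1AKO 2 came close to Control 2. Around LXR they were the coactivator Ncoa1 (-0.40 ± 0.14), the phospholipid transfer protein gene Pltp (0.59 ± 0.23), an LXR target, and the corepressor Ncor1 (-0.48 ± 0.19). Pltp therefore had the opposite sign to Abca1, with 269, 355 and 210 CPM in Cdo1AKO 1 to 3, against 192, 158 and 204 CPM in Control 1 to 3. The lymph node term brought 3 of the 60 tested wider genes past the threshold, beside 4.13% of all genes. They were Por (-1.08 ± 0.21, adjusted p = 0.0420 by edgeR) and, named after their values were seen, Arl4c (1.90 ± 0.25, adjusted p = 0.0222) and Abca7 (0.86 ± 0.15, adjusted p = 0.0345). Arl4c, an LXR target in other cells, had 156, 19.3 and 145 CPM in Cdo1AKO 1 to 3, against 3.98, 57.8 and 31.4 CPM in Control 1 to 3. It was lowest in Cdo1AKO 2 and Control 1, where T cell markers were lowest too: the 8 of them summed to 992, 16.1 and 1014 CPM in Cdo1AKO 1 to 3, against 15.6, 354 and 213 CPM in Control 1 to 3. The part of those cells in the result was not tested.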

How the data were processed

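Raw read counts and FPKM per gene for each of the 6 samples were deposited in 1 table, per the file headers. It also holds the authors' log2 fold change of Cdo1AKO over WT with its p-value and adjusted p-value, used only where that table is named. FPKM values, deposited by the authors, served only to compare levels between genes. The submitters' processing notes name the build mm10 and the tools DESeq2 1.20.0, HISAT2 2.0.5 and featureCounts 1.5.0-p3 and give no roles. TRIzol extraction and the NEBNext Ultra library kit are per the labels' protocols; whether counting used strand is not stated there.

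Sample titles gave the group and replicate number. Counts were filtered with filterByExpr by group, scaled by TMM and tested with edgeR 4.0.16 (quasi-likelihood, group as the only term, all 6 libraries) in R 4.3.3, adjusted after Benjamini and Hochberg over 16623 genes at a threshold of 0.05. The procedure was tested on simulated counts. CPM uses the TMM-scaled library sizes; intervals reflect the spread between libraries. Alternatives were other scaling factors and filters, DESeq2 1.42.0, limma-voom from limma 3.58.1, a replicate block, a lymph node term (1 where the median CPM of the B cell and lymph node markers was above 5), the 4 libraries so marked, and each library left out; DESeq2 on all genes with a count was added after seeing the data. Named genes were all 30 members, Cdo1, and the 3 genes of each wider list with the smallest p; some genes that this rule names are not reported here. The members, lists and the lymph node term were chosen with earlier results of these data known. Promoters are from RefSeq on GRCm38.p6; 24 of 30 members had an entry. The symbol Spring1 of the wider lists was not matched in the table and is not analysed here.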

Additional observations from a re-analysis of the deposited data

How the results depend on the processing

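Scaling (RLE or upper-quartile factors), filters, DESeq2, limma-voom and the replicate block left the sign of every member's fold change in place, and 15 of 30 members held it under every alternative run, each library left out included. Fdps could not be fitted under the stricter filter. Members called higher numbered 0, but 1 with the lymph node term and 1 in the 4 libraries with lymph node transcripts. Members called lower numbered 0, but 1 by DESeq2 and 4 in those 4 libraries. In either direction, 4.13% of all genes were called with the lymph node term and 2.46% by DESeq2. In the 4 libraries 15.3% of all genes were called, beside 16.7% of the members. The median fold change of the synthesis enzymes ran from 0.013 (without Cdo1AKO 2) to 0.90 when 1 library was left out, and its difference from the LXR target median from 0.060 (without Cdo1AKO 2) to 1.17. In the 4 libraries these were -0.059 and -0.029, and reversed too were Mvk (-0.073), Pmvk (-0.20), Idi1 (-0.067), Sqle (-0.16), Lss (-0.19), Msmo1 (-0.16), Nsdhl (-0.051), Sc5d (-0.45), Insig1 (-0.67), Nr1h2 (0.043) and Abcg1 (0.10); both fits leave out Cdo1AKO 2. Ranges of the fold change with 1 library left out crossed 0 for Mvk (-0.10 to 0.75), Pmvk (-0.40 to 0.71), Lss (-0.12 to 1.24), Msmo1 (-0.14 to 0.50), Nsdhl (-0.015 to 1.66), Ebp (-0.032 to 0.29), Sc5d (-0.36 to 0.41), Insig1 (-0.65 to 0.89), Insig2 (-0.32 to 0.13), Scap (-0.011 to 0.084), Srebf2 (-0.076 to 0.35), Nr1h2 (-0.18 to 0.020) and Abcg1 (-0.28 to 0.066).

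Deviations from the group means of same-numbered samples correlated at -0.66, -0.66 and 0.41 across genes. Over all pairs of a Cdo1AKO and a Control library, the sign was positive where the lymph node term was the same and negative where it differed. As the sign followed this split, the correlations cannot decide whether the numbers pair the samples. With the replicate block 0 members were called and the synthesis median was 0.55. Over all genes, calls numbered 0 by edgeR, 0 by limma-voom, 392 by DESeq2, 686 with the lymph node term and 2617 in the 4 libraries. Depth limits Fdps most, at 5 to 27 counts per library; the lowest count of any other member was 81, for Sqle.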
